A study of Mus musculus with 2 samples.

Results

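The genes described here are 39 antioxidant, glutathione and selenoprotein genes of mouse skeletal muscle, chosen by name: every read on an annotated model of a named gene was counted for it. In replicate 1 all 39 were read and in replicate 2 38 were, among 14451 annotated genes with reads in either library. The RNA was total RNA of the gastrocnemius, the calf muscle made mostly of fast fibres, from female B6CASTF1/J mice (F1 hybrids of the B6 and CAST backgrounds) aged 18 to 20 months, with no treatment named. It was read by long-read sequencing in 2 libraries of 1 group, biological replicates 1 and 2, each started from 2 µg of RNA. Both libraries carry the same donor record in the labels, which do not say how many animals went into each, so p-values refer to these 2 libraries alone and any difference may be technical.

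Muscle fibres make superoxide in their mitochondria and at their membranes. Superoxide dismutases turn it into hydrogen peroxide, and catalase, glutathione peroxidases and peroxiredoxins remove the peroxide. The thioredoxin and glutathione systems recharge those enzymes with electrons from NADPH, and glutathione transferases couple glutathione to reactive compounds. Several of these enzymes carry selenocysteine, an amino acid that ribosomes insert at a UGA codon, which elsewhere ends translation. The factor NRF2 (gene Nfe2l2), held in check by KEAP1, drives many of the genes through a DNA element called the antioxidant response element.

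The UGA codon is what 9 of the 39 genes share at the level of sequence, so it is shown here in its reading frame, from the GENCODE M21 transcripts. Capitals mark the selenocysteine codon (TGA in DNA letters), with up to 12 coding bases on each side. The window of Txnrd1 and of Txnrd2 ends at the true stop codon, with a single glycine codon between.
Gpx1, codon 47: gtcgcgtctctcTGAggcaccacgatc
Gpx3, codon 73: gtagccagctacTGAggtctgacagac
Gpx4, codon 73: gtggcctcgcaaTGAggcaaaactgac
Selenow, codon 13: tattgtggagctTGAggctataagccc
Selenon, codon 428: gaccagtcctgcTGAggttccgggcgg
Selenop, codon 59: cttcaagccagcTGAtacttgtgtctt
Msrb1, codon 95: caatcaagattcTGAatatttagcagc
Txnrd1, codon 498: cagtctggctgcTGAggttaa
Txnrd2, codon 526: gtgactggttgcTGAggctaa
On mm10 the codon lay at chr9:108339451-108339453 in Gpx1, chr11:54907256-54907258 in Gpx3 and chr10:80054737-80054739 in Gpx4, all on the plus strand. It lay at chr7:15920464-15920466 in Selenow and chr4:134542338-134542340 in Selenon, both on the minus strand. Selenop has 10 such codons, of which the first is shown (chr15:3274848-3274850, plus strand), and the codon of Msrb1 lay at chr17:24740158-24740160 on the plus strand. In the thioredoxin reductases it lay at chr10:82896037-82896039 (Txnrd1) and chr16:18477772-18477774 (Txnrd2), both on the plus strand. In both reductases it follows a cysteine codon, tgc, and precedes a glycine codon.

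The genes held 7407 of 1117891 reads on annotated genes in replicate 1 and 5028 of 975696 in replicate 2. Levels are counts per 1000000 reads on annotated genes (CPM), given as mean ± SD over the 2 libraries. Each long read was counted as 1 transcript, so levels were not divided by length. Repeat reads of 1 molecule and a dependence of read numbers on length were not corrected for. By counting error alone, a count of 0 allows a level of up to 2.68 CPM in replicate 1 and 3.07 CPM in replicate 2. Summed, the 39 genes stood at 6626 CPM in replicate 1 and 5153 CPM in replicate 2 (5890 ± 1041 CPM). A few genes carried most of this: 15 genes had a mean of at least 100 CPM, 18 lay between 10 and 100 CPM, and 6 lay under 10 CPM. Of the 39, 12 were among the top 5% of all detected genes by level. Both libraries were rich in RNA of muscle fibres: the 5 myofibre markers (Acta1, Ckm, Myh4, Ttn and Atp2a1) summed to 292020 CPM in replicate 1 and 329380 CPM in replicate 2. These markers do not tell the gastrocnemius from other muscles. The 8 slow fibre markers summed to 771 CPM in replicate 1 and 5481 CPM in replicate 2.

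**Figure D1:**
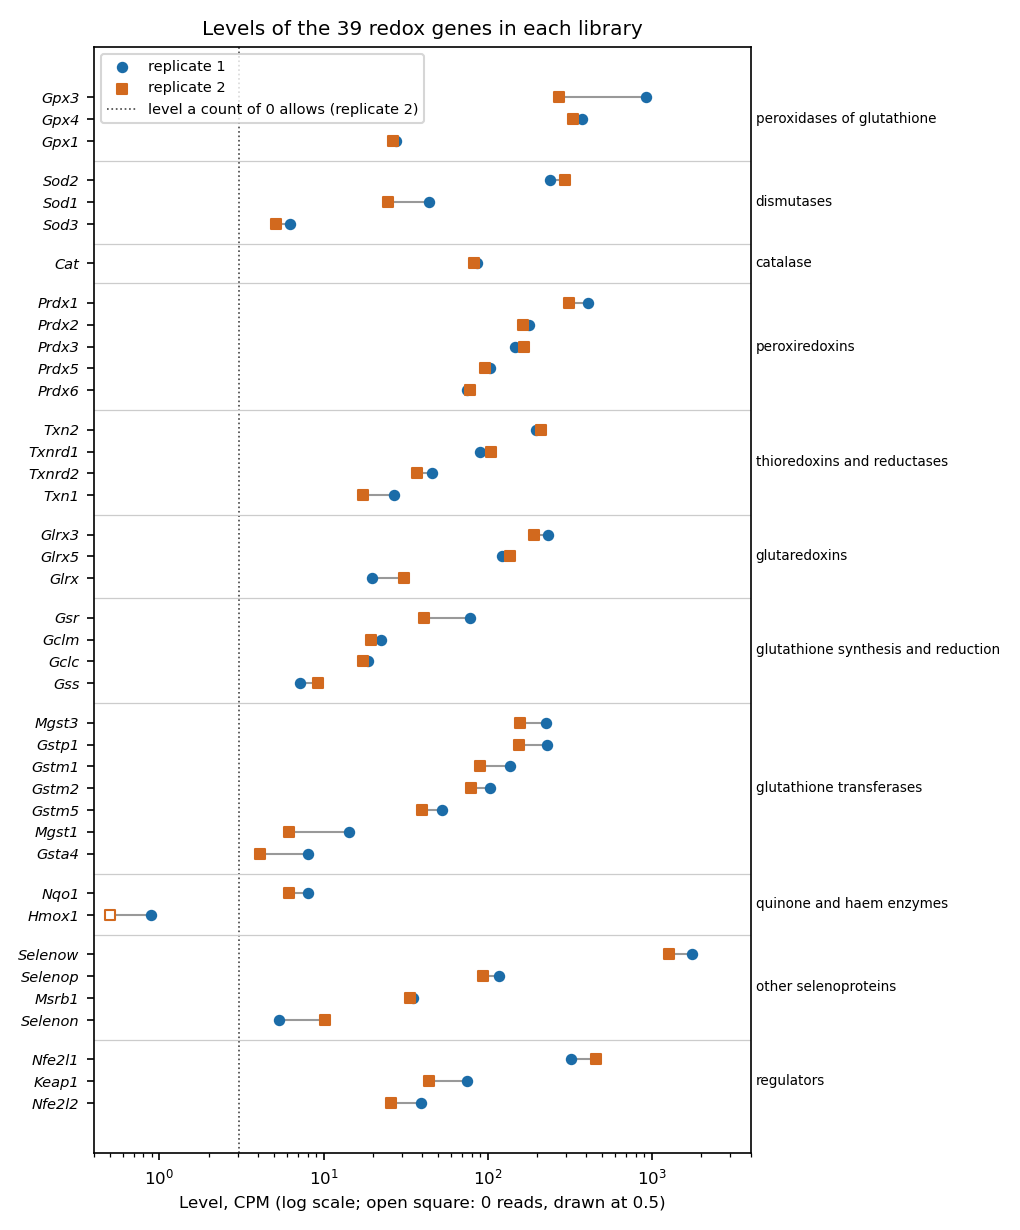
Level of each of the 39 genes in CPM (log scale) in replicate 1 (circles) and replicate 2 (squares), grouped by role; a grey line joins the libraries and the dotted line is the level that a count of 0 allows in replicate 2. Selenow stands highest in both libraries, the widest gap among the abundant genes is that of Gpx3 (929 and 271 CPM), and Hmox1 lies left of the dotted line.

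The most abundant gene was Selenow, which encodes a small selenoprotein with a thioredoxin-like fold. It took 1975 reads of replicate 1 and 1244 of replicate 2, or 1767 and 1275 CPM, and ranked 46th among all detected genes. Selenow alone took 26.7% of the reads of the 39 genes in replicate 1 and 24.7% in replicate 2. Of the other selenoproteins outside the peroxidase and reductase families, Selenop, the secreted carrier of selenium, stood at 117 and 94.3 CPM. Msrb1, a methionine sulfoxide reductase, stood at 34.9 and 33.8 CPM, and Selenon, whose loss causes a congenital myopathy in humans, at 5.37 and 10.2 CPM.

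Among the enzymes that remove peroxide, Gpx3 and Gpx4 were abundant and Gpx1 was not. Gpx3, the secreted glutathione peroxidase, had 1038 reads (929 CPM) in replicate 1 and 264 (271 CPM) in replicate 2. Gpx4, which reduces lipid peroxides in membranes, had 378 and 331 CPM. Gpx1, the cytosolic form, had 27.7 and 26.6 CPM from 31 and 26 reads, and ranked 3668th among detected genes. The peroxiredoxins, thiol peroxidases without selenium, were led by the cytosolic Prdx1 at 409 and 315 CPM. Prdx2, also cytosolic, had 179 and 164 CPM, and the mitochondrial Prdx3 had 147 and 167 CPM. Prdx5 (103 and 96.3 CPM) and Prdx6 (75.1 and 77.9 CPM) followed, next to the peroxisomal catalase, Cat, at 85.9 and 83.0 CPM.

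The dismutases were dominated by the mitochondrial form. Sod2, the manganese enzyme of the matrix, had 242 and 295 CPM, while Sod1, the copper and zinc enzyme of the cytosol, had 43.8 and 24.6 CPM from 49 and 24 reads. Sod3, the extracellular enzyme, had 7 and 5 reads (6.26 and 5.12 CPM). The same order held for thioredoxin, the protein that recharges the peroxiredoxins: the mitochondrial Txn2 had 197 and 210 CPM and the cytosolic Txn1 had 26.8 and 17.4 CPM. In both pairs the mitochondrial gene was higher than the cytosolic one in each library. Their reductases were arranged otherwise, with the cytosolic Txnrd1 at 90.3 and 105 CPM above the mitochondrial Txnrd2 at 45.6 and 36.9 CPM. Among glutaredoxins, the iron-sulphur cluster proteins Glrx3 (233 and 192 CPM) and Glrx5 (122 and 137 CPM) stood above Glrx, the classical cytosolic enzyme (19.7 and 30.7 CPM).

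The genes that make and recycle glutathione were low beside the abundant genes of the set. By mean level each still stood above the median of all detected genes, 7.165 CPM. Gsr, which reduces oxidised glutathione, had 77.8 and 41.0 CPM. The subunits of the rate-limiting synthesis enzyme, Gclc (18.8 and 17.4 CPM) and Gclm (22.4 and 19.5 CPM), stood close together, and Gss, the last step of synthesis, had 7.16 and 9.22 CPM. The transferases were led by Mgst3, a membrane-bound form, at 227 and 158 CPM and by Gstp1 at 229 and 155 CPM. Gstm1 (136 and 90.2 CPM), Gstm2 (103 and 78.9 CPM) and Gstm5 (52.8 and 40.0 CPM), of the mu class, came next. Mgst1 (14.3 and 6.15 CPM) and Gsta4, which handles the lipid aldehyde 4-hydroxynonenal (8.05 and 4.10 CPM), closed the series.

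Both genes most often used as reporters of NRF2 activity were near the bottom of the 39 genes. Nqo1, a quinone reductase, had 9 and 6 reads (8.05 and 6.15 CPM). Hmox1, the inducible haem oxygenase, had 1 read in replicate 1 and 0 in replicate 2, below the level that a count of 0 allows in either library. Of the regulators, Nfe2l1, a relative of NRF2 known for driving proteasome genes, had 324 and 460 CPM, while Nfe2l2 had 39.4 and 25.6 CPM and Keap1 75.1 and 44.1 CPM. Nfe2l1 was thus above Nfe2l2 in both libraries.

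The libraries were compared with each other, since the series holds no second condition. Each count in replicate 1 was set against its share of the TMM effective library sizes (exact binomial, 2-sided). The p-values were adjusted by the Benjamini-Hochberg method over the 8394 genes with at least 10 reads. Of the 39 genes, 38 were tested (Hmox1 was not) and 7 passed an adjusted p of 0.05. Over all genes 11.7% passed, 4.61% as higher in replicate 1 and 7.06% as higher in replicate 2. The 7 are 18.4% of the 38. Of the 38, 23 lay above 1 for replicate 1 (60.5%), as did 49.8% of all genes tested. Selenow, Gpx3, Gsr, Gstp1 and Mgst3 were higher in replicate 1, and Sod2 and Nfe2l1 in replicate 2. With total reads in place of TMM, which moves every log2 ratio up by 0.115, there were 9 calls, 8 higher in replicate 1 and 1 in replicate 2. This test knows counting error only. With the scatter between the libraries added as a common dispersion (edgeR exact test), 0 of the 38 passed, against 0.286% of all genes, and 1 had an unadjusted p under 0.05 (Gpx3, adjusted p = 0.358), against 11 of the 38 in the exact binomial test.

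**Figure D2:**
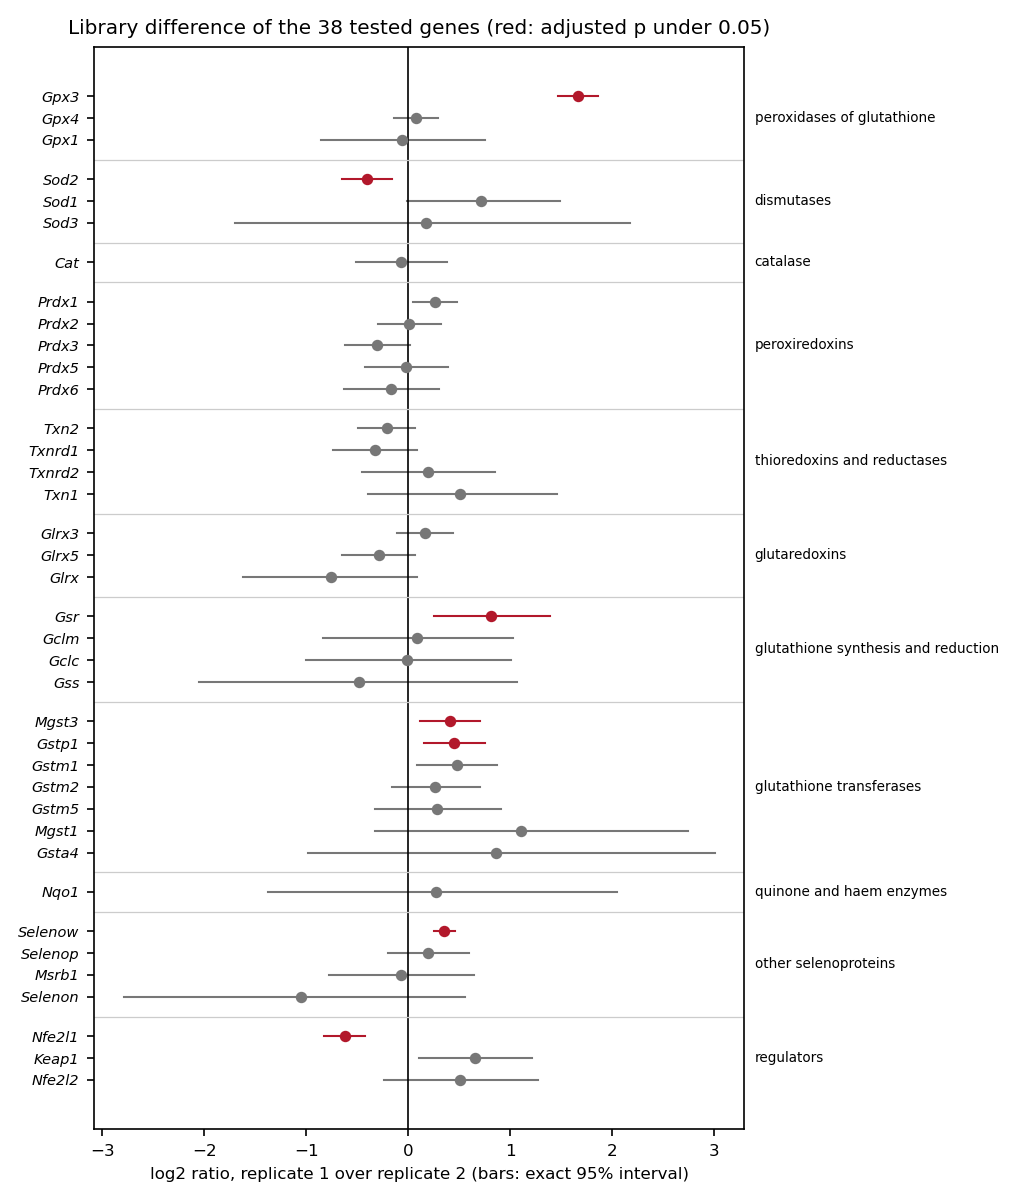
log2 ratio of replicate 1 over replicate 2 for the 38 tested genes, grouped by role, with exact 95% intervals; red marks genes with an adjusted p under 0.05 in the exact binomial test. Gpx3 lies far to the right at 1.66, the transferases all lie right of 0, and Sod2 and Nfe2l1 are the red points left of 0.

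Gpx3 differed most. It was 3.17-fold higher in replicate 1 (95% interval 2.77 to 3.64, adjusted p = 3.30e-73, exact binomial test). The other secreted proteins of the set, Selenop (1.15-fold, 0.872 to 1.52) and Sod3 (1.13-fold, 0.308 to 4.51), were not called. Gpx3 and Selenow made up most of the gap in the summed level: the other 37 genes together had 3931 CPM in replicate 1 and 3608 CPM in replicate 2. Adipocyte markers (Adipoq, Plin1, Cidec, Lep and Plin4, all with reads) summed to 48.3 CPM in replicate 1 and 47.1 CPM in replicate 2. Red blood cell markers (5 of 5 with reads) summed to 225 and 134 CPM, and macrophage markers (9 of 10 with reads, Cd68 at 0 in both) to 76.0 and 35.9 CPM. Tenocyte markers (4 of 5 with reads, Mkx at 0 in both) summed to 140 and 64.6 CPM. Endothelial markers (8 of 8 with reads) summed to 137 and 86.1 CPM. Schwann markers (5 of 5 with reads) summed to 104 and 60.5 CPM, and Mbp among them was called higher in replicate 1. Fibroblast markers (8 of 8 with reads) went the other way in sum, at 350 and 480 CPM. So did smooth muscle and pericyte markers (6 of 6 with reads), at 165 and 248 CPM. Both of these lists were split. Of 7 tested fibroblast markers, Col1a1, Col1a2 and Col3a1 were called higher in replicate 2, and Dcn (226 and 122 CPM) in replicate 1. Of 5 tested smooth muscle and pericyte markers, Rgs5 and Pdgfrb were called higher in replicate 2. Acta2 and Tagln pointed to replicate 1 without a call. The macrophage, tenocyte, endothelial and adipocyte lists were split too. Of macrophage markers only Lyz2 (38.5 and 7.17 CPM) was called, higher in replicate 1. Adgre1, Mrc1 and Cd163 had a higher CPM in replicate 2. Of tenocyte markers only Scx was called, also higher in replicate 1, while Tnmd went the other way. Cdh5 and Tek (endothelial) and Adipoq and Cidec (adipocyte) pointed to replicate 2 without a call. The part of all these cell types in the Gpx3 difference was not tested. In a bulk sample, fewer cells of a type and less RNA per cell cannot be told apart.

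Selenow was 1.28-fold higher in replicate 1 (1.19 to 1.37, adjusted p = 4.88e-10, exact binomial test). Among the other selenocysteine genes, Gpx4 was 1.06-fold higher in replicate 1 (0.911 to 1.22) and Txnrd1 1.25-fold higher in replicate 2 (0.942 to 1.67), and neither was called. Of the 9 selenocysteine genes 2 were called, both higher in replicate 1, with a median log2 ratio of 0.08, and 5 lay above 1 and 4 below.

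All 7 glutathione transferases lay above 1 for replicate 1, with a median log2 ratio of 0.45, whereas the 38 tested genes had a median of 0.17 and all genes tested -0.0031. The most read annotated transcript of each of the 7 was under 1500 bases. All tested genes under 1500 bases had a median log2 ratio of 0.291, and 71.3% of them lay above 0. The part of length in the transferase values was not tested. Gstp1 was 1.37-fold higher in replicate 1 (1.11 to 1.68, adjusted p = 0.0242) and Mgst3 1.33-fold (1.08 to 1.63, adjusted p = 0.0459) in the exact binomial test. The Mgst3 call was lost with no filter on low counts (adjusted p = 0.0787), with Known, NIC and NNC models only (0.0716) and with Known models only (0.154). Gstm1, 1.39-fold higher (1.06 to 1.83), had an adjusted p of 0.0939 and was not called, nor were Gstm2, Gstm5, Mgst1 and Gsta4. Gstp1 is uncertain as a single gene, because the neighbouring Gstp2 shares 98.5% of its 21-base words with Gstp1 transcripts. Gstp2 itself took 102 and 60 reads and was not called. Gsr, which supplies reduced glutathione, was 1.75-fold higher in replicate 1 (1.19 to 2.62, adjusted p = 0.0304), from 87 and 40 reads, and its adjusted p was 0.052 with no filter on low counts. The synthesis genes Gclc and Gclm were at 1.00-fold (0.498 to 2.00) and 1.06-fold (0.561 to 2.04). Transcripts of Gclm hold 55.8% of the 21-base words of Ppia, an unrelated gene with 143 and 55 reads. Of the Gclm reads, 23 of 25 in replicate 1 and 19 of 19 in replicate 2 lay on the spliced chain of Gclm-201, with 7 exons. In replicate 1, 1 read lay on a single-exon model, and whether it belongs to Ppia was not tested.

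Among the mitochondrial genes only Sod2 was called. Of Sod2, Prdx3, Txn2, Txnrd2 and Glrx5, 4 lay below 1, that is toward replicate 2, where 49.8% of all genes tested lay above 1. Sod2 was 1.32-fold higher in replicate 2 (1.12 to 1.57, adjusted p = 0.0126), from 270 and 288 reads, but with total reads as library size its adjusted p was 0.115 and with Known, NIC and NNC models only it was 0.0835. Prdx3 was 1.23-fold higher in replicate 2 (0.987 to 1.54), Glrx5 1.22-fold (0.956 to 1.56) and Txn2 1.16-fold (0.951 to 1.40), none called. Txnrd2 lay on the other side (1.14-fold higher in replicate 1, 0.731 to 1.80). The 8 slow fibre markers, genes of fibres rich in mitochondria, were all called higher in replicate 2, at 771 CPM in replicate 1 and 5481 CPM in replicate 2. Their part in the values of the mitochondrial genes was not tested.

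Nfe2l1 was 1.54-fold higher in replicate 2 (1.34 to 1.77, adjusted p = 5.11e-08, exact binomial test). The other regulators pointed to replicate 1 without a call: Keap1 was 1.57-fold higher there (1.08 to 2.33, adjusted p = 0.103) and Nfe2l2 1.42-fold (0.849 to 2.42, adjusted p = 0.478). Of the remaining genes, Prdx1 was 1.20-fold higher in replicate 1 (1.04 to 1.39, adjusted p = 0.0930) and Glrx3 1.12-fold (0.925 to 1.36). Prdx2 (1.01-fold, 0.814 to 1.25), Prdx5 (1.01-fold, 0.764 to 1.34) and Cat (1.05-fold, 0.769 to 1.42) were near 1. The ratios of Gpx1, Cat, Prdx5, Gclc and Msrb1 were so close to 1 that their direction flipped with total reads as library size.

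Transcript length moved with the difference between the libraries. Across the 38 tested genes the Spearman correlation of annotated length with the log2 ratio was -0.373, and across 8041 genes with a length it was -0.361; the points share both libraries, so these are descriptions. Of 18 tested members under 1500 bases, 12 lay above 0 (66.7%), against 71.3% of all genes of that length. Of 20 members of 1500 bases or more, 11 did (55.0%), against 44.2% of all such genes. Selenow (736 bases), Gstp1 (821 bases) and Mgst3 (1097 bases) were short and higher in replicate 1, while Sod2 (5861 bases) and Nfe2l1 (4596 bases) were long and higher in replicate 2. Gpx3 (1594 bases) and Gsr (2673 bases) were above 1500 bases and higher in replicate 1. The median length over the 8041 genes was 2658 bases, so Gpx3 lay below that median and Gsr close to it. For Txnrd2 the annotated length, 532 bases, is that of a partial transcript. The part of length in these calls was not tested.

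**Figure D3:**
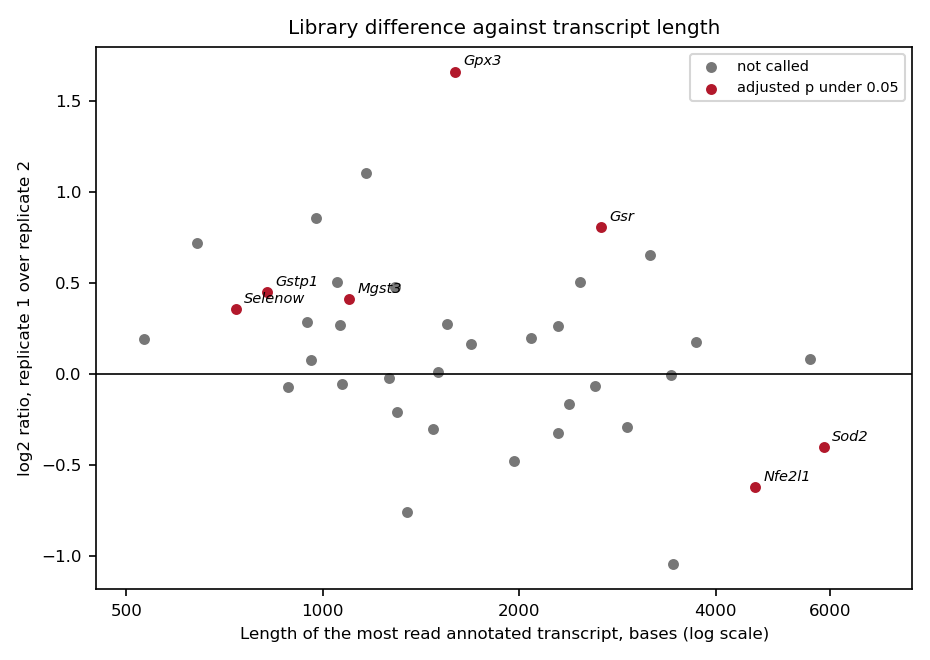
log2 ratio of replicate 1 over replicate 2 against the length in bases (log scale) of each gene's most read annotated transcript, for the 38 tested genes; red marks an adjusted p under 0.05. The called short genes Selenow, Gstp1 and Mgst3 lie above 0, the called long genes Sod2 and Nfe2l1 lie below 0, and Gpx3 stands apart at the top.

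The same comparison was made for 124 other genes of the same pathways, in 8 lists. Of these 102 had reads, and 75 were tested. Replicate 1 was higher for 8 and replicate 2 for 5, and 62 passed in neither direction (median log2 ratio 0.08). Over all genes tested 4.61% were higher in replicate 1 and 7.06% in replicate 2, 11.7% in all, and several of the lists below held fewer than 10 tested genes. Among 12 further peroxidases and partners, 1 of 7 tested was called: Park7, a peroxide-sensing protein, was the most abundant at 817 and 578 CPM and 1.30-fold higher in replicate 1 (1.17 to 1.45). Among 30 further glutathione genes, Gstk1 (3.11-fold, 1.32 to 8.46) and Chac1, which degrades glutathione (2.12-fold, 1.23 to 3.81), were higher in replicate 1. Oplah, which recycles 5-oxoproline, was 2.04-fold higher in replicate 2 (1.44 to 2.92), and Glo1 was the most abundant of that list (385 and 344 CPM) and not called.

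Of 8 tested NADPH suppliers 2 were called, both higher in replicate 2: Idh2, the mitochondrial isocitrate dehydrogenase, was 2.13-fold higher there (1.77 to 2.57) and malic enzyme Me1, at 432 and 490 CPM, was 1.23-fold higher (1.08 to 1.40). Among NRF regulators and classical targets 5 were higher in replicate 1 and 1 in replicate 2 of 18 tested. The iron store Fth1, at 1702 and 1360 CPM, was 1.16-fold higher in replicate 1 (1.08 to 1.24), Ftl1 1.63-fold (1.23 to 2.19), the iron exporter Slc40a1 2.13-fold (1.50 to 3.07) and the carbonyl reductase Cbr1 3.11-fold (1.32 to 8.46). The metallothionein Mt1 went the other way, 2.78-fold higher in replicate 2 (1.71 to 4.65). In the list of oxidant sources Xdh, xanthine dehydrogenase, was the most abundant (19.7 and 45.1 CPM) and was 2.48-fold higher in replicate 2 (1.46 to 4.35). No gene of the other 3 lists was called: 0 of 9 thioredoxin and methionine sulfoxide genes, led by Msrb3 (134 and 138 CPM), 0 of 8 selenoproteins, led by Sephs2 (172 and 159 CPM), and 0 of 7 genes of selenoprotein synthesis, led by Sephs1 (27.7 and 34.8 CPM). At an unadjusted p under 0.05 in the exact binomial test these lists held 2, 1 and 0 genes. With the common dispersion in the edgeR exact test 0 of the 75 were called, and 2 had an unadjusted p under 0.05, against 21 in the exact binomial test.

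Most reads of the 39 genes matched an annotated transcript. Known models, whose intron chain is in the annotation, took 88.4% of their reads in replicate 1 (Wilson 95% interval 87.7 to 89.1) and 88.0% in replicate 2 (87.1 to 88.9). Over all annotated genes the shares were 63.6% and 59.3%. All of these are shares of reads, so the most read genes weigh most. Atp2a1 alone stood at 151700 CPM in replicate 1 and 191440 CPM in replicate 2. The parts of such genes and of transcript length in this contrast were not tested. Models with at least 1 unannotated splice site (NNC) took 2.43% of the reads of the 39 genes in each library, against 17.9% and 21.5% over all genes. Partial chains (ISM, incomplete splice match) took 5.66% and 5.25%, new combinations of annotated splice sites (NIC) 0.783% and 0.975%, and the Genomic class, for models that overlap a gene without matching its splicing, 2.71% and 3.34%. Without Selenow the Known share over both libraries was 86.0%, and 30 of the 39 genes had at least 80% of their reads on Known models. Of the Known reads, 99.9% in replicate 1 and 99.8% in replicate 2 lay on protein-coding transcripts, and transcripts annotated as retained introns took 5 and 7 reads. The lowest Known shares were those of Txnrd2, at 8.05%, and Nfe2l1, at 60.8% with 25.6% Genomic. Selenon, Sod1, Nqo1, Prdx2, Keap1, Glrx5 and Gclc lay between 62.5% and 76.3%.

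For 29 genes with at least 20 reads on Known, NIC and NNC models in each library, 1 intron chain usually carried the gene. By the mean of the 2 libraries, the leading chain held at least 90% of these reads in 21 of the 29 genes (72.4%). This held for 49.3% of 3521 genes with enough reads. The median of these mean shares was 95.2%, against 89.8%. Among the 21, Gstm5 had 98.2% in replicate 1 and 89.5% in replicate 2, and Msrb1 had 85.3% and 100%. The share of the leading chain was not called as different between the libraries in any of the 29 (Fisher's exact test, adjusted over 3521 genes), where 0.483% of all genes were called. Some intervals were too wide to show equal shares, as for Keap1 at 60.94% (48.69 to 71.94) in replicate 1 and 79.41% (63.2 to 89.65) in replicate 2. At an unadjusted p under 0.05 the 29 also gave no call, with the lowest p at Msrb1 (p = 0.0700, Fisher's exact test).

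**Figure D4:**
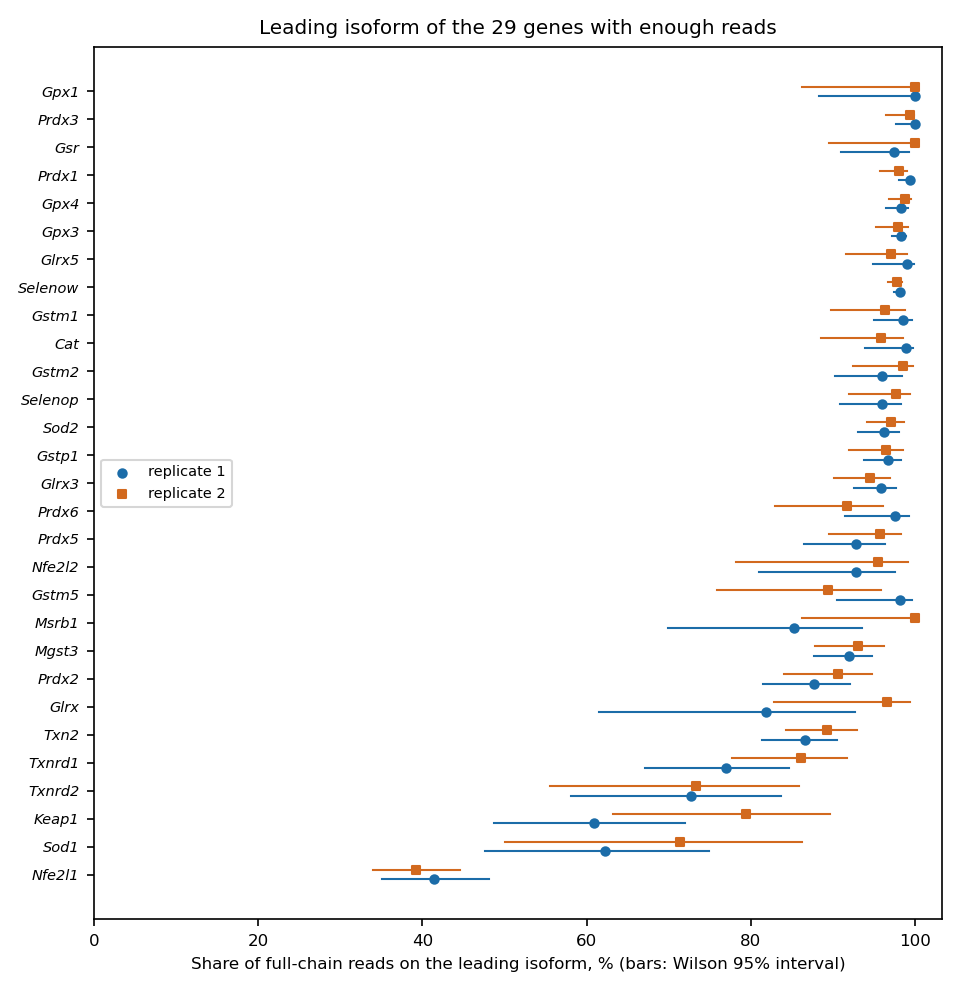
Share of reads on the leading intron chain, in % of Known, NIC and NNC reads, for the 29 genes that reached 20 such reads in both libraries, with Wilson 95% intervals. Most genes lie above 90% in both libraries, and Nfe2l1 is lowest at 41.5% and 39.2%.

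Nfe2l1 was the only one of the 29 whose leading chain held less than 50% in both libraries. Nfe2l1-211 took 90 reads of replicate 1 and 127 of replicate 2 (41.5% and 39.2%), Nfe2l1-201 had 73 and 123 (33.6% and 38.0%), and Nfe2l1-203 had 32 and 44 (14.7% and 13.6%). They have the same coding length, 2223 bases, and differ before the start codon: the first exon is 92 bases in Nfe2l1-211, 150 bases in Nfe2l1-201 and 758 bases in Nfe2l1-203, where it also holds the start codon. These 3 Nfe2l1 transcripts therefore differed outside the coding part, while Nfe2l1-210 (0 and 2 reads) and Nfe2l1-212 (0 and 1 reads) have shorter coding parts. For Keap1 the named transcripts also share their coding length, with Keap1-201 at 39 and 27 reads, Keap1-202 at 12 and 2 and Keap1-204 at 6 and 4, all of 1872 coding bases. Txnrd1-208 (67 and 81 reads) and Txnrd1-201 (12 and 6 reads) both had 1497 coding bases, and Txnrd1-208 carried 1 more exon, of 107 bases, before the start codon. Prdx2-201 (129 and 107 reads) and Prdx2-203 (15 and 7 reads) had 594 coding bases each, the latter with an exon 2 longer by 88 bases.

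A second isoform with another coding length was rare. Prdx5-201 had 104 and 90 reads and 630 coding bases, and Prdx5-203, with another first exon and 639 coding bases, had 7 and 3 reads. Gpx4 has a known set of first exons that direct the protein to different compartments. Gpx4-202, of 591 coding bases, had 402 and 316 reads (98.3% and 98.8%), and Gpx4-201, which starts at another first exon and codes for 759 bases, had 4 and 1 reads. The processed copy Gpx4-ps2, with 31 and 15 reads, shares 92.2% of its 21-base words with Gpx4, so some reads may belong to either. Msrb1-202 had 29 and 24 reads and Msrb1-201, of the same 348 coding bases, 5 and 0. For Txn2 the next chain was a NIC model with an intron of 468 bases within the last exon, at 12 and 9 reads beside 187 and 176 of Txn2-201. Sod1-201 had 28 and 15 reads, and the next Sod1 chain, an NNC model whose first exon ran 607 bases further, had 4 and 5. Sod1 also has a processed copy, Gm8566, which shares 62.0% of its 21-base words with Sod1 and had 18 and 10 reads, so the low Sod1 counts are uncertain.

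The selenocysteine codon lay in nearly all full chains. All reads on Known, NIC and NNC models held it in Gpx1, Gpx3, Txnrd1, Selenon, Selenop and Msrb1 in both libraries, and 99.5% and 99.7% did in Selenow. In Gpx4 the shares were 100% and 99.7%, and in Txnrd2 88.6% and 93.3%. The distance from this codon to the last exon junction matters for nonsense-mediated decay, which is known to act on stop codons far enough ahead of a junction and on some selenoprotein mRNAs when selenium is short. In the leading models the codon was 105 bases ahead of the last junction in Gpx1, 240 in Gpx3, 342 in Gpx4, 243 in Selenow, 216 in Selenon and 357 in Selenop. It was 66 bases ahead in Msrb1 and 83 bases ahead in Txnrd2, and in Txnrd1 it lay in the last exon. The leading Txnrd2 model is an NNC model that lacks an annotated 20-base exon ahead of the codon. Whether its codon is in the reading frame was not tested. Beside these distances, Selenow, Gpx3 and Gpx4 were the most abundant of the 9 genes and Selenon the least.

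Short exons were present in nearly all reads of some of these genes and in none of others. Internal exons of at most 30 bases occur in coding transcripts of 5 of the 39 genes, and 3 of them are printed here, the last with the selenocysteine codon in capitals.
Txnrd2, exon of 20 bases: gttggtggttggagccagct
Gsr, exon of 27 bases: gtgaatgttggatgtgtacccaaaaag
Selenow, exon of 25 bases: tggagctTGAggctataagcccaag
The 25-base exon of Selenow (chr7:15920449-15920473, minus strand) was in 1891 of 1903 spanning reads in replicate 1 (99.4%) and 1204 of 1211 in replicate 2 (99.4%). The 27-base exon of Gsr (chr8:33669153-33669179, plus strand) was in all 78 and 33 spanning reads, and a 25-base exon of Gpx4 in all 421 and 321. The 20-base exon of Txnrd2 (chr16:18453721-18453740, plus strand), present in 5 annotated coding transcripts, was in 0 of 40 spanning reads in replicate 1 and 0 of 29 in replicate 2, and so was an exon of 7 bases. A 19-base exon of Glrx, in 1 annotated transcript, was in 0 of 22 and 0 of 29.

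The leading Txnrd2 chain was an NNC model with 32 reads in replicate 1 and 22 in replicate 2 (72.7% and 73.3%). Its 1 unannotated intron, chr16:18443287-18454475, spans the 20-base exon. The intron begins 12 bases after the annotated end of the exon before it and ends 13 bases ahead of the exon after it in Txnrd2-203, at an acceptor that the annotation holds in another transcript. The deposited models give no read sequence, so whether these reads carry the 20 bases was not tested. The absence was not particular to Txnrd2: of 139 annotated internal exons of 11 to 20 bases with at least 20 spanning reads over both libraries, 110 (79.1%) were in none of them. All 63 exons of 1 to 10 bases were in none (100%), against 86 of 425 exons of 21 to 30 bases (20.2%). The annotated exons differ in how often any tissue uses them, which these shares do not separate. Apart from the rule on named isoforms, 1 Selenow chain was singled out after its reads were seen: 6 and 4 reads lacked the 25-base exon, and in them the exon before it ran 10 bases further. A Selenow chain with an acceptor shifted by 2 bases had 15 and 13 reads.

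The antioxidant response element was searched for in the promoters. Its core, TGACNNNGC, was sought on both strands of RefSeq windows on GRCm38.p6 that run from 250 bases before to 50 bases after each gene's start. Of the 39 genes 33 had a window, and 7 of these (21.2%) held the core: Sod1, Prdx1, Txnrd1, Gclm, Gstm5, Mgst1 and Nfe2l2. The core was in 17.6% of 6540 genes with at least 10 reads and a window, in 17.6% of 108 other genes of the redox lists, and in 12.4% of all 32851 windows. The share among the 39 genes was thus close to that of other genes read in this muscle. Sod3, Prdx6, Gsr, Gclc, Gsta4 and Hmox1 had no window. The matches of Prdx1, the most abundant of the 7 with the core, of Gclm and Txnrd1, known NRF2 targets, and of Nfe2l2 itself are shown on the gene's strand, with the core in capitals and 10 bases on each side.
Prdx1: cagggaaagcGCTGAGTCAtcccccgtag
Gclm: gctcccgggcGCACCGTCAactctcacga
Txnrd1: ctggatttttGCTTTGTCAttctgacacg
Nfe2l2: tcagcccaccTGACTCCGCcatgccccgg
Their windows were chr4:116685349-116685648 for Prdx1, chr3:122245307-122245606 for Gclm and chr10:82858956-82859255 for Txnrd1, on the plus strand, and chr2:75704614-75704913 for Nfe2l2, on the minus strand. The core lay 133 bases before the start in Prdx1, 134 in Gclm and 92 in Txnrd1, on the opposite strand, and 240 bases before it in Nfe2l2, on the gene's own strand. A match describes these letters only.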

How the data were processed

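Long-read RNA-seq of gastrocnemius was analysed in 2 libraries, biological replicates 1 and 2 of 1 group per the labels. The authors deposited raw counts of reads per transcript model, listing models with at least 1 read, with the number of exons and the length of each model per the file headers, and annotations with 1-based positions on mm10. Per the file headers, TALON named the models, which are those of GENCODE M21 and others added per library. For the aligner, filters and versions, the record is not given in the sources used here.

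Counts of all models of a gene were summed. The CPM denominator was the reads on annotated endogenous genes, 1117891 in replicate 1 and 975696 in replicate 2, without spike-ins. Genes with at least 10 reads were compared between the libraries by an exact binomial test on TMM library sizes (factors 1.04 and 0.961, R 4.3.3 with edgeR 4.0.16), adjusted by Benjamini-Hochberg. With 1 library per side no quasi-likelihood fit was possible. An edgeR exact test with common dispersion 0.0622 was the alternative error model, and DESeq2 1.42.0 gave alternative size factors. Intervals cover counting error only. Models of the libraries were matched where chromosome, strand and all introns were equal. Leading chains were compared by Fisher's exact test in genes with at least 20 reads on Known, NIC and NNC models in each library. Copies were genes sharing at least 50% of their 21-base words with a member's transcripts. Promoter windows came from RefSeq on GRCm38.p6.

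Full values are given for genes called at an adjusted p of 0.05 or with a mean of at least 100 CPM. Of the other pathway genes, the text names called genes, at most 4 a list by fold, and the most abundant of each list. Isoforms named are the leading and next chains, and NIC or NNC chains with at least 5 reads in each library. The members and lists were chosen with earlier results of these data known. The tests were tested on simulated counts. Python 3.11.15 with numpy 2.4.6, pandas 2.3.3, scipy 1.17.1 and matplotlib 3.10.9 was used.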

Additional observations from a re-analysis of the deposited data

Results flagged for a closer look

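Reads on the strand opposite to these genes were outside every comparison above, since they belong to models of unannotated loci. Such models overlapped 12 of the 39 genes, and most held 1 to 3 reads. Single-exon models opposite Sod2 stood out, with 31 reads in replicate 1 and 49 in replicate 2, both above the 3 reads that a count of 0 allows. All reads opposite Sod2 together, 32 and 51, came to 11.9% and 17.7% of the gene's own 270 and 288 reads. The model of replicate 1 lay at chr17:13016737-13019016 on the minus strand of mm10. The model of replicate 2 is given at 1 position inside it, 13016934, so its extent is not known from the annotation. How far reads of the Sod2 strand and the opposite strand were told apart was not tested. Opposite Nqo1 a single-exon model had 4 reads in replicate 1, next to 9 reads of the gene itself, and no such reads were listed in replicate 2.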

How the results depend on the processing

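The 16 genes given in full were recomputed under 8 alternatives of the library comparison: of 128 values, 112 kept their direction and their side of the threshold, 13 lost the call, 2 gained it and 1 reversed. The last was Prdx2, which was not called, with a log2 ratio of -0.0167 with Known models only in place of 0.0107. Calls of the 39 genes went from 7 to 0, and of the other redox genes from 13 to 0, with the common dispersion. Under the other alternatives run for each, both totals stayed within 1.5 times of these, but counts by direction moved more. Calls of the 39 genes higher in replicate 1 and 2 went from 5 and 2 to 8 and 1 with total reads, to 3 and 2 with no filter and to 4 and 1 with Known, NIC and NNC models only, and those of the other redox genes from 8 and 5 to 5 and 5 with no filter. Of the 16 genes, Gstm1 and Prdx1 were called as well with total reads (adjusted p = 0.0238 and 0.00539, exact binomial test) and Sod2 was not. Of the 9 calls of the 39 genes with total reads, 6 were among the 7 of the main setting. The gained calls thus include a gene outside the 16. Mgst3, Gsr and Sod2 also lost their calls under the filter or model classes given beside them above. The cause of these changes was not tested. The summed level of the 39 genes was 8430 CPM with Known models only in numerator and denominator, in place of 5890, and ran from 5153 to 6626 CPM when either library was left out. The Known share ran from 88.0% to 88.4%. Matched by transcript identifier, 1 of the 29 leading isoforms was called (Txnrd2), where added models carry separate identifiers in each library. No paired analysis was possible because there is 1 group. Leaving out a library leaves no comparison between libraries. Genes under about 10 CPM (6 of the 39) rest on fewer than 20 reads over both libraries, so that only wide intervals can be given for them.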
